A study of Danio rerio with 20 samples.

Results

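Hoxb1b and Sox3 were mapped on chromatin by ChIP-seq (chromatin immunoprecipitation and sequencing) in wild-type zebrafish embryos, taken whole after exposure to 0.1 µM all-trans retinoic acid (atRA), and the 4 peak lists of this experiment, of 20 libraries in the series, are compared here. They are the lists labelled atRA and 80% epiboly for these 2 antibodies, with 2 libraries each, and all came from embryos treated from 30% epiboly and collected at 80% epiboly, a stage of gastrulation. A further 12 gastrula libraries served as other readouts at the same places: Hoxb1b and Sox3 in untreated control embryos, and Raraa and Meis2b in control and in atRA-treated embryos, with 2 libraries each. All were wild-type, and the labels give no separate clutch or batch for a replicate number. Embryos were used whole, so a place called for both factors may be bound in the same cells or in different ones.

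Hoxb1b is a homeodomain protein of the most anterior Hox group. Its gene is a direct retinoic acid target that is switched on in the prospective hindbrain during gastrulation, and Hox proteins of this group bind DNA together with the TALE homeodomain cofactors Pbx and Meis, of which Meis2b is one. Sox3 is an HMG-box factor of the SoxB1 family, which is present broadly in the early ectoderm and holds cells in a neural progenitor state. Raraa is a retinoic acid receptor, the nuclear protein through which atRA acts on its target genes.

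A peak is an interval that the authors called in 1 library, a site of a factor is a merged interval where peaks of both its libraries overlapped by at least 1 bp, and a shared region is a merged interval that holds a site of each factor. On chromosomes 1 to 25, the Hoxb1b libraries held 86866 and 71640 peaks (mean 79253 ± 10766, SD, n = 2) and the Sox3 libraries 135299 and 132311 (mean 133805 ± 2113, SD, n = 2). Both Sox3 lists were longer than both Hoxb1b lists, with 0.76 more on the log2 scale (two-sided exact permutation p = 0.33, the lowest that 2 libraries against 2 can give). The lists were not equally deep. The background recovered from the peak values was 0.910 and 0.533 fragments covering a base in Hoxb1b replicates 1 and 2, and 1.12 and 1.02 with Sox3. Peak number and background thus moved together between the antibodies, and the part of depth in the difference was not tested. The total reads behind each list are unknown.

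With all called peaks, most Hoxb1b sites lay at Sox3 sites, whereas most Sox3 sites had no Hoxb1b site. Of 31462 Hoxb1b sites, 24094 (76.6%) overlapped a Sox3 site, and of 63239 Sox3 sites, 24361 (38.5%) overlapped a Hoxb1b site. The shared numbers were close, so the difference between these shares restates the ratio of 2.01 Sox3 sites per Hoxb1b site. Merged, the sites gave 69819 regions, of which 44.3% were called with Hoxb1b, 89.4% with Sox3 and 33.8%, or 23573, with both. Every region without a Hoxb1b site holds a Sox3 site by the way the regions were made, which raises the 89.4%. Among regions with Hoxb1b, the share with Sox3 could therefore not exceed 89.4%. The 76.6% of Hoxb1b sites thus cannot be read as a shortfall against it. A further 3876 Hoxb1b sites (12.3%) held a peak of 1 Sox3 library, 304 held peaks of both that did not overlap each other, and 3188 (10.1%) held no Sox3 peak at all. On the Sox3 side, 16621 sites (26.3%) held a peak of 1 Hoxb1b library, 699 held peaks of both that lay apart, and 21558 (34.1%) held none.

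These shares depended on asking for 2 libraries per factor. With Hoxb1b replicate 1 left out, so that any peak of replicate 2 counted as a site, 44.6% of Hoxb1b sites were shared, and without replicate 2 it was 43.9%. Without Sox3 replicate 1 or 2, 21.6% and 20.7% of the Sox3 sites so defined were shared. The share of the factor that kept both libraries rose instead. It was 83.3% of Hoxb1b sites without either Sox3 replicate, and 47.6% and 57.1% of Sox3 sites without Hoxb1b replicates 1 and 2. With the 20000 strongest peaks of each library, 68.7% of Hoxb1b sites and 51.1% of Sox3 sites were shared, so most Sox3 sites then had a Hoxb1b site. This evens out the peaks per library but not the sites per factor, which also depend on how far the replicates overlap. Few sites sat at the edge of the 1 bp overlap rule. The median overlap of a shared Hoxb1b site with a Sox3 site was 385 bp, 114 of these sites (0.473%) overlapped by under 50 bp, and 85 of the 3188 Hoxb1b sites without Sox3 (2.67%) had a Sox3 site within 100 bp. A stricter rule still lowered the shares. With a reciprocal overlap of at least 50%, 61.8% of Hoxb1b sites and 28.9% of Sox3 sites were shared.

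Sharing followed strength in both lists. When Hoxb1b sites were ordered by the authors' p, averaged as a rank over both libraries, 99.6% of the strongest 10% were shared with Sox3, 83.4% of class 5 of 10 and 42.0% of the weakest 10%. Of the 3147 strongest Hoxb1b sites, 5 held no Sox3 peak. For Sox3 the share fell from 88.5% in the strongest 10% to 34.5% in class 5 and 8.56% in the weakest 10%. In whole embryos, binding in fewer cells and weaker binding per cell cannot be told apart. A strong Sox3 site without any Hoxb1b peak was uncommon but not rare, with 148 among the 6324 strongest.

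**Figure D1:**
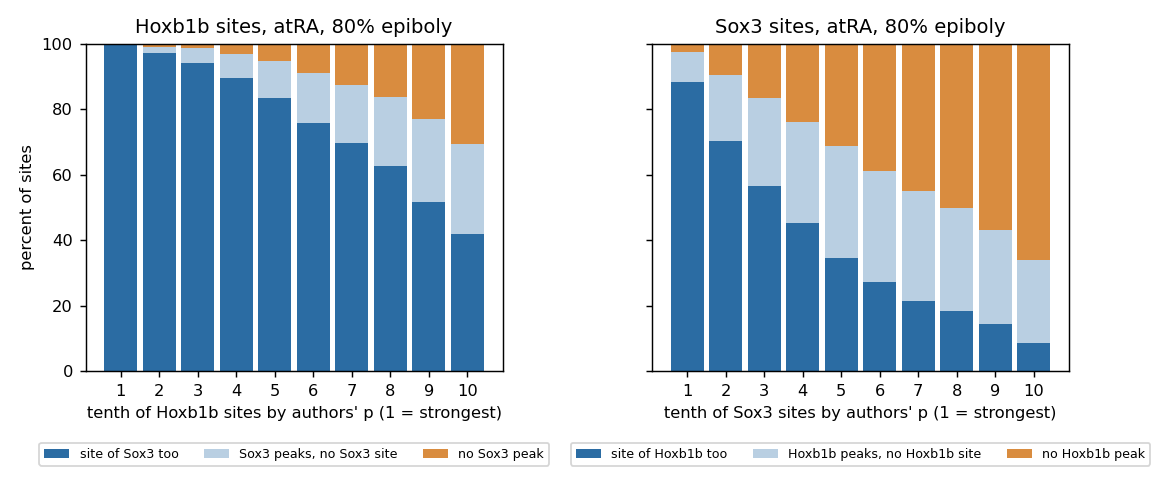
Percent of Hoxb1b sites (left) and Sox3 sites (right) in each of 10 equal classes of strength by the authors' p, split into sites shared with the other factor, sites with peaks but no site of the other factor, and sites with no peak of it. The shared portion shrinks from 99.6% to 42.0% of Hoxb1b sites and from 88.5% to 8.56% of Sox3 sites.

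The authors' fold enrichment, a ratio of the summit's coverage over the local background, gave the same order within each list. In Hoxb1b replicate 1 the median was 6.00 at shared sites and 4.49 at sites without Sox3, and in replicate 2 it was 5.99 and 4.70. In Sox3 replicate 1 it was 6.84 at shared sites and 4.72 at sites without Hoxb1b, and in replicate 2 it was 7.28 and 4.93. In fragments at the summit, the shared sites had medians of 16 and 12 with Hoxb1b and 23 and 23 with Sox3. Hoxb1b sites without Sox3 had 10 and 8, and Sox3 sites without Hoxb1b 11 in both libraries. Shared sites were therefore stronger in each of the 4 libraries. The sites, merged over both libraries of a factor, were also wider, with a median of 444 bp against 292 bp on the Hoxb1b side and of 518 bp against 279 bp on the Sox3 side. These values come from the lists that define the classes, so they describe the classes and carry no test.

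With an equal number of peaks, libraries of the same antibody still resembled each other more than libraries of different antibodies. Of the 10000 strongest peaks, the Hoxb1b replicates shared 65.0% and the Sox3 replicates 80.0%. The pairs across the factors shared 56.3% and 56.3% for Hoxb1b replicate 1, and 52.6% and 52.0% for Hoxb1b replicate 2. Every pair of one antibody lay above every pair of different antibodies, by 18.2 percentage points on average (one-sided exact permutation p = 0.33, the lowest that 3 pairings of 4 libraries can give). The size rested on single libraries, at 10.9 points without Sox3 replicate 1, 10.6 without Sox3 replicate 2, 27.8 without Hoxb1b replicate 1 and 23.8 without Hoxb1b replicate 2. With the 40000 strongest peaks it was 9.31 points.

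At shared regions the Hoxb1b and Sox3 summits lay as close together as the summits of the Hoxb1b replicates did. The strongest peak of each library in a region was used. Between the Hoxb1b replicates the median distance was 67 bp, and between the Sox3 replicates it was 50 bp. Across the factors it was 64 and 65 bp for Hoxb1b replicate 1 against Sox3 replicates 1 and 2, and 67 and 68 bp for Hoxb1b replicate 2. The 4 medians across the factors thus spanned the Hoxb1b replicate value, and only the Sox3 pair was closer. The share of regions with summits within 50 bp was 41% for the Hoxb1b replicates, 50.4% for the Sox3 replicates and 40.1% to 43.0% across the factors. At the far end, 15.0% of regions had Hoxb1b replicate summits over 200 bp apart, 11.8% had Sox3 replicate summits that far apart, and the factors differed by that much in 15.8% to 16.8%.

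Averaged, the distance across factors was 66.0 bp and that within factors 58.5 bp, a difference of 7.50 bp (one-sided exact permutation p = 0.33, again the lowest possible). The Sox3 pair carried it. When either Sox3 replicate was left out, the Hoxb1b pair alone stood for the distance within a factor, and the difference was -1.50 bp. Without Hoxb1b replicate 1 it was 17.5 bp and without Hoxb1b replicate 2 it was 15.5 bp. In the 71.5% of shared regions with exactly 1 peak of each library, the medians were 57 bp for Hoxb1b, 43.0 bp for Sox3 and 54.0 to 58.0 bp across factors. The medians across the factors were thus near the Hoxb1b replicate value and above the Sox3 replicate value. Whether they hold an offset between the factors, beyond the spread of replicate summits of both antibodies, was not tested.

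**Figure D2:**
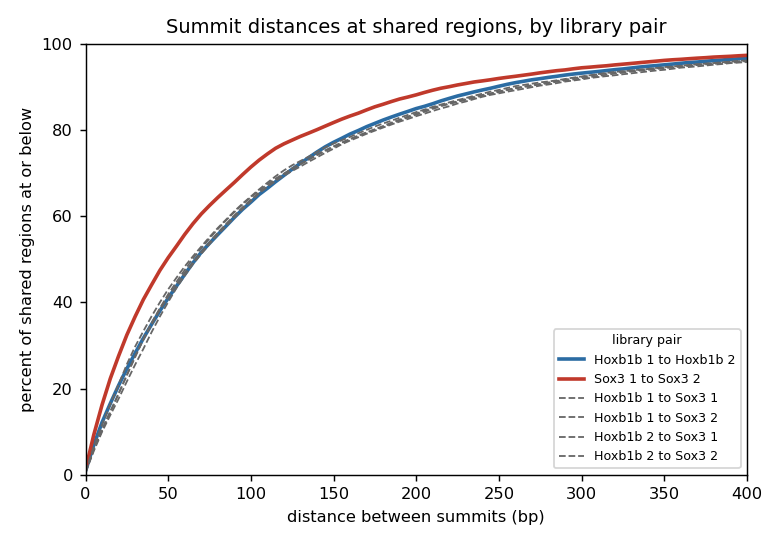
Cumulative percent of the 23573 shared regions (vertical axis) whose summits in a pair of libraries lie within the distance on the horizontal axis, in bp. The curve of the Hoxb1b replicates (median 67 bp) runs with the 4 dashed curves across the factors (64 to 68 bp), and the curve of the Sox3 replicates (median 50 bp) lies above them.

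Summits were placed more closely at strong regions. In the strongest 10% of shared regions the median distance was 33.5 bp between Hoxb1b replicates, 25 bp between Sox3 replicates and 33.0 to 41 bp across factors. In the weakest 10% these were 84.0 bp, 83.0 bp and 89.0 to 94.0 bp. The Sox3 replicates were the closest pair in every class of strength. The Hoxb1b replicates lay within or above the range across the factors in all classes but the weakest.

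Separated summits were found in a minority of shared regions. A region was counted when all 4 distances across factors exceeded both replicate distances and were at least 100 bp, and 1453 of 23573 regions (6.16%) met this, 764 of them with 1 peak of each library. The share was 2.63% in the strongest 10% and 8.27% in the weakest, where the replicate summits of each factor also lay farther apart. Over all shared regions, replicate summits were over 200 bp apart in 15.0% with Hoxb1b and 11.8% with Sox3. How many regions would meet the rule through the spread of replicate summits alone was not tested. The 1453 are therefore not a count of places where the factors bind apart. The strongest example lay on chromosome 5, from 826033 to 826724 (coordinates are GRCz10, also called danRer10, the build named in the submitters' processing notes). Its Hoxb1b summits lay 35 bp apart, its Sox3 summits 26 bp apart, and the factors 191 to 252 bp apart. On chromosome 5 from 65324408 to 65324954, the replicate summits lay 14 bp apart with Hoxb1b and 10 bp with Sox3, while the factors were 190 to 214 bp apart. On chromosome 16 from 16438980 to 16439746 the corresponding distances were 43 bp, 11 bp and 141 to 195 bp. On chromosome 13 from 5317860 to 5318546 they were 59 bp, 4 bp and 121 to 184 bp. These were the 4 strongest of the 1453, chosen after their values had been seen. Each held a peak in 11 or 12 of the 12 other gastrula libraries, against a median of 6 over all shared regions. That median is not matched for strength. Of 439 regions in the strongest 5% of shared regions in all 4 libraries, 243 to 439 held a peak in each of the other libraries. The part of strength was not tested.

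Strength at shared regions was correlated less across the factors than within them. As a description across the 23573 regions, which are not independent and share their libraries, Spearman's rho of the authors' p was 0.857 between the Sox3 replicates and 0.633 between the Hoxb1b replicates. Across factors it was 0.568 and 0.564 for Hoxb1b replicate 1, and 0.505 and 0.504 for the shallower Hoxb1b replicate 2.

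The shared regions with the best ranks were strong in every gastrula library. The first lay on chromosome 20 from 4437636 to 4438055 and ranked 1 in all 4 lists, with 203 and 188 fragments at the summit in Hoxb1b replicates 1 and 2 and 197 and 181 in Sox3. Its fold enrichments were 33.7, 34.9, 32.6 and 34.9, and its summits lay within 14 bp of each other. In the 12 other gastrula libraries it ranked 1 or 2. The next, on chromosome 17 from 53292572 to 53292884, ranked 2 in all 4 lists, with 173, 163, 180 and 160 fragments, and had ranks of 1 to 14 elsewhere. The third, on chromosome 4 from 57548155 to 57548619, had 151, 117, 141 and 145 fragments and ranks of 1 to 46 elsewhere. The fourth was the region with separated summits on chromosome 5 described above, with 154, 118, 141 and 151 fragments and ranks of 3 to 68 elsewhere. All 4 were therefore high whichever antibody or treatment was used, and whether this signal depends on the antibodies was not tested. Of the shared regions, 477 (2.02%) held a peak in all 12 other libraries, against 0.690% of all regions, and without such sites 76.2% of Hoxb1b sites and 38.1% of Sox3 sites were shared.

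Shared regions that had no peak in either Hoxb1b control library numbered 13068 (55.4%), against 71.8% of all regions. Those with none there but a peak in both Sox3 controls numbered 8107 (34.4%), against 27.7% of all regions. The strongest shared region without a Hoxb1b control peak lay on chromosome 8 from 14473455 to 14474530, with 99 and 93 fragments with Hoxb1b and 159 and 146 with Sox3. Its Hoxb1b summits lay 5 bp apart, its Sox3 summits 55 bp apart and the factors 25 to 30 bp apart. The second, on chromosome 17 from 42244269 to 42245109, had 104 and 63 fragments with Hoxb1b and 147 and 144 with Sox3. On chromosome 18 from 11815838 to 11816775, Hoxb1b had 92 and 76 fragments and Sox3 137 and 136. On chromosome 19 from 26045877 to 26046838, Hoxb1b had 105 and 79 and Sox3 117 and 100, with the factors 6 to 23 bp apart. All 4 held peaks of both Sox3 control, both Meis2b atRA and both Raraa atRA libraries, and they were chosen after these values had been seen. Among all shared sites in the strongest 20% with Hoxb1b, both Meis2b atRA libraries held a peak at 79.6%. Sox3 control replicates 1 and 2 held one at 85.0% and 90.2%, and Raraa atRA replicates 1 and 2 at 96.8% and 74.4%. The part of strength in the count of 4 was not tested. The Hoxb1b control lists were shorter, at 42278 and 58750 peaks, so that the absence of a control peak says only that none passed the authors' threshold there.

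Hoxb1b sites without Sox3 were weaker, and the 4 strongest all held peaks of both Meis2b atRA libraries. In the strongest 20% of Hoxb1b sites, 61.8% of the 34 without Sox3 and 79.6% of shared sites held both. On chromosome 4 from 10267145 to 10267818, fold enrichments were 11.5 and 12.9 and the summits held 31 and 28 fragments. This region also held a peak of Sox3 control replicate 1, although neither atRA list of Sox3 had one. On chromosome 7 from 12501555 to 12501950, the values were 11.9 and 11.3, with 30 and 22 fragments and summits 3 bp apart. On chromosome 21 from 3592440 to 3593031, they were 10.6 and 10.1, with 29 and 20 fragments, and the Meis2b atRA libraries were the only others with a peak. On chromosome 14 from 35866070 to 35866430, they were 9.46 and 9.13, with 31 and 23 fragments, and Meis2b peaks stood there in both control and both atRA libraries. These sites ranked 1290 to 3115 in their lists, far below the best shared regions.

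The 4 strongest Sox3 sites without Hoxb1b held more fragments at the summit, in libraries with a higher background. That background was 1.12 and 1.02 fragments covering a base, against 0.910 and 0.533 with Hoxb1b. The 4 sites ranked 507 to 2589 in their lists, and the part of depth was not tested. The strongest lay on chromosome 14 from 13978099 to 13978613, with fold enrichments of 12.8 and 13.6 and 72 and 68 fragments, and both Sox3 controls were the only other gastrula libraries with a peak. The same held on chromosome 20 from 29840788 to 29841448, with fold enrichments of 13.7 and 20.6 and 51 and 73 fragments. On chromosome 8 from 39576515 to 39577082, the values were 11.4 and 11.6, with 76 and 71 fragments. On chromosome 17 from 44326825 to 44327550, they were 14.6 and 15.4, with 64 and 57 fragments and both summits on the same base. The site on chromosome 17 also held a peak of Hoxb1b control replicate 1, although neither atRA list of Hoxb1b had one. All 4 sites held a peak in both Sox3 controls, none had peaks of both Meis2b atRA libraries, and 1 had a peak of Meis2b atRA replicate 1. Of the 750 sites without Hoxb1b in the strongest 20% of Sox3 sites, 90.7% and 91.7% held a peak of Sox3 control replicates 1 and 2. Meis2b atRA replicates 1 and 2 held a peak at 22.3% and 18.5% of them.

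The other gastrula libraries, which had no part in defining the classes, were called most often at shared regions. In all 12 the share of shared regions with a peak exceeded that of Hoxb1b sites without Sox3 and that of Sox3 sites without Hoxb1b. Meis2b with atRA was called in 61.6% and 53.7% of shared regions in replicates 1 and 2, in 19.3% and 14.7% of Hoxb1b sites without Sox3, and in 12.4% and 8.72% of Sox3 sites without Hoxb1b. Both Meis2b atRA libraries together held peaks in 44.0%, 8.34% and 3.21% of these classes, against 19.5% of all regions. Raraa with atRA was called in both libraries in 47.6%, 10.7% and 7.20%, against 23.8% of all regions. All 4 atRA libraries of Meis2b and Raraa held a peak in 6200 shared regions (26.3%), against 9.71% of all regions.

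The control libraries showed the same order, with 1 exception. Both Sox3 controls held peaks in 69.3% of shared regions, 28.7% of Sox3 sites without Hoxb1b and 4.74% of Hoxb1b sites without Sox3, against 44.4% of all regions. Single Sox3 control libraries were called in 74.5% and 85.1% of shared regions, against 53.9% and 63.6% of all regions. Most places shared with atRA were therefore also called for Sox3 in untreated embryos of the same stage. Inside the Sox3 control lists, every peak is named for replicate 2, while 1 of these libraries is labelled replicate 1. Their contents differ, with 103127 and 105524 peaks of median width 179 and 236 bp. Both Hoxb1b controls held peaks in 12.6% of shared regions, 2.10% of Hoxb1b sites without Sox3 and 1.38% of Sox3 sites without Hoxb1b, against 5.72% of all regions. For Meis2b controls the shares were 11.9%, 2.04% and 1.09%, against 5.27%, and for Raraa controls 18.1%, 2.35% and 1.65%, against 8.12%. Comparing the classes with 1 factor, 10 of the 12 libraries were called more often where Hoxb1b stood without Sox3 than where Sox3 stood without Hoxb1b, and the exceptions were the 2 Sox3 controls. When the mean summit had to lie in the peak, it was 9 of 12, since Raraa control replicate 1 turned round, at 2.20% and 2.36%. The shared regions were then still called most often in all 12. These shares are given library by library and were not tested.

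**Figure D3:**
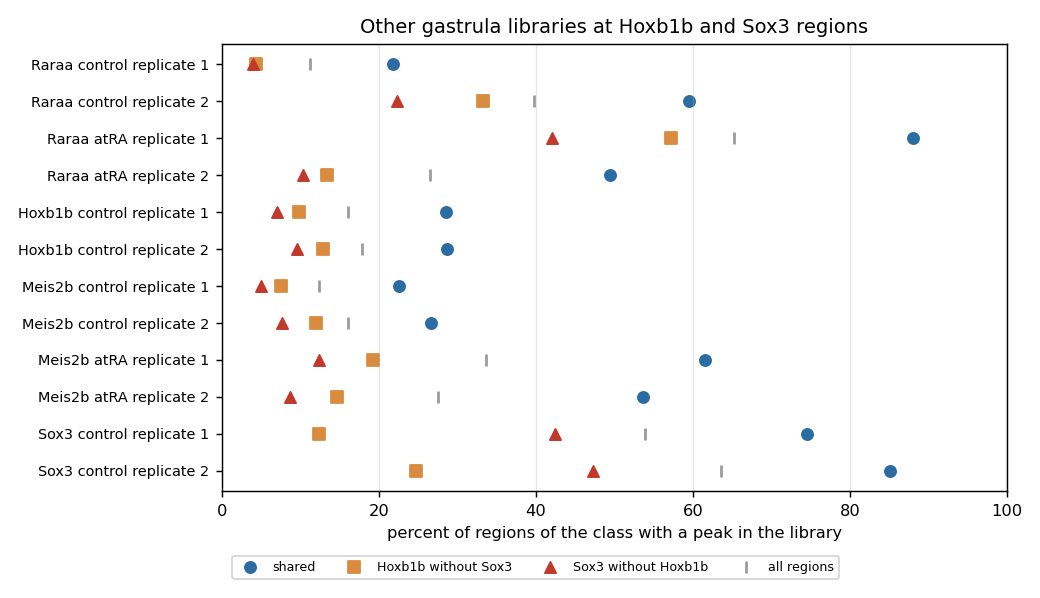
Percent of regions with a peak in each of the 12 other gastrula libraries, for shared regions, Hoxb1b sites without Sox3, Sox3 sites without Hoxb1b and all 69819 regions. The shared regions lie to the right in all 12 libraries, and Sox3 sites without Hoxb1b pass Hoxb1b sites without Sox3 in the Sox3 controls. By mean summit they also do so in Raraa control replicate 1 (2.36% against 2.20%).

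Since shared sites were stronger, Meis2b was compared again within 5 equal classes of Hoxb1b strength. In the strongest 20%, peaks of both Meis2b atRA libraries were found at 4927 of 6188 shared sites (79.6%) and at 21 of 34 sites without Sox3 (61.8%). In class 2 they were found at 44.3% of 5784 shared sites and at 35.7% of 129 sites without Sox3. In class 3 they were found at 28.7% and 16.2%, and in the weakest at 13.9% and 3.22%. The gap in single Meis2b libraries averaged 40.7 percentage points between all shared regions and all Hoxb1b sites without Sox3. Between Hoxb1b sites of one class it was 19.2 in the strongest 20% and 18.4 in the weakest 20%. In class 2, replicates 1 and 2 held a peak at 64.9% and 55.1% of shared sites and at 50.4% and 48.1% of those without Sox3. The gap was thus less within these classes than without them, although merged regions and sites are not the same units. Strength still differed within a class. Of the 34 sites without Sox3 in the strongest 20%, 5 lay in the stronger of 2 equal parts and 29 in the weaker. Of all Hoxb1b sites in these parts, 99.6% and 97.1% were shared. The part of strength in the remaining gaps was not tested. In the strongest 20%, Hoxb1b sites without Sox3 were few, and still most of them carried Meis2b.

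At Sox3 sites the gap in Meis2b, in percentage points, was smaller in weaker classes, where the shares on both sides were lower. In the strongest 20% of Sox3 sites, Meis2b with atRA was called at 78.7% and 71.8% of 10035 shared sites and at 22.3% and 18.5% of 750 sites without Hoxb1b. In that strongest class, the Sox3 controls were called at close rates in both, 90.9% and 95.1% of shared sites and 90.7% and 91.7% of sites without Hoxb1b. Hoxb1b controls were called at 34.4% and 32.3% of these shared sites and at 6.80% and 7.73% of the others. Strength differed within this class too. Of the 750 sites without Hoxb1b, 148 lay in the stronger of 2 equal parts and 602 in the weaker. Of all Sox3 sites in these parts, 88.5% and 70.2% were shared. The part of strength in the gaps at Sox3 sites was not tested. In class 3 of 5, Meis2b was called at 44.2% and 37.3% of shared sites and at 14.7% and 10.8% of sites without Hoxb1b. In the weakest 20%, it was called at 30.7% and 21.7% of 1459 shared sites and at 8.93% and 6.02% of 7791 without Hoxb1b. The Sox3 controls differed more between the classes there than at strong sites, with peaks at 57.5% and 76.3% against 51.5% and 57.7% in class 3, and at 32.1% and 56.0% against 25.9% and 30.6% in the weakest 20%.

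**Figure D4:**
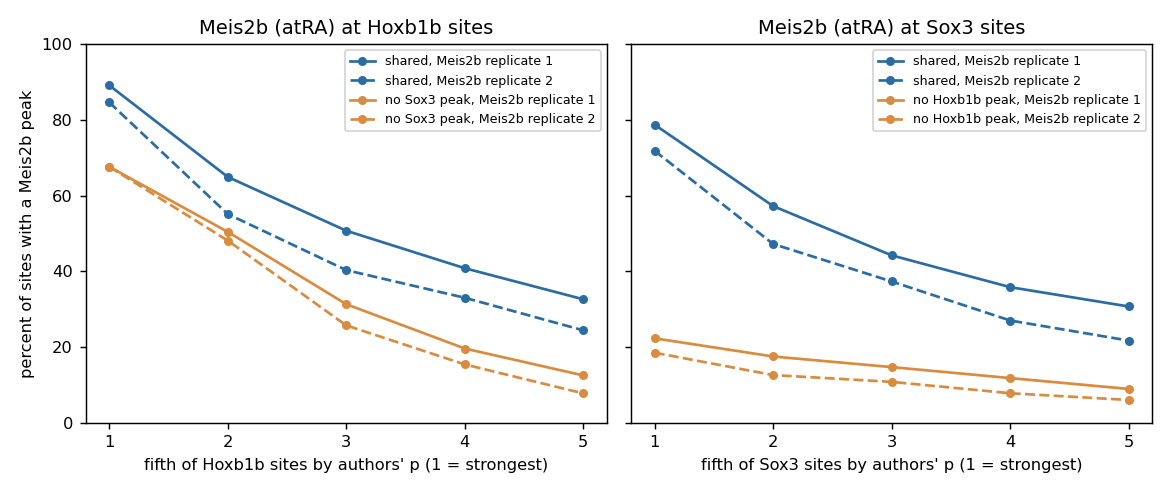
Percent of Hoxb1b sites (left) and Sox3 sites (right) with a Meis2b peak in atRA replicates 1 and 2, by class of strength (5 equal classes), for shared sites and for sites with no peak of the other factor. The 34 strong Hoxb1b sites without Sox3 reach 67.6% in both Meis2b libraries, while the 750 strong Sox3 sites without Hoxb1b reach 22.3% and 18.5%. Classes were made within each factor, so left and right are not matched in strength.

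Within the shared regions, the balance between the factors went with Sox3 peaks in controls more than with Meis2b peaks. Regions were ordered by the difference between their mean rank with Sox3 and with Hoxb1b, each rank taken among the shared regions. Across regions, this difference in replicates 1 correlated with that in replicates 2 at a Spearman's rho of 0.435, so single regions were placed loosely. From the 10% that leaned most to Hoxb1b to the 10% that leaned most to Sox3, the share with a peak in Sox3 control replicates 1 and 2 went from 52.7% and 67.9% to 91.3% and 95.0%. That of Hoxb1b controls ended lower, going from 30.0% and 30.3% to 18.7% and 20.9%. It did not fall steadily, since both replicates were highest in class 6 of 10, at 36.3% and 33.6%. Meis2b with atRA was called in 65.2% and 58.1% of the first and in 56.7% and 48.3% of the last. It did not fall steadily either, with its highest shares in class 6, at 66.5% and 60.6%. Ranks with the factors, as percents of the shared regions, moved along as well. The first class had a median Hoxb1b rank at 34.0% and the last at 72.2%, while the median Sox3 rank went from 76.3% to 25.5%. The part of Sox3 strength in the rise of the Sox3 controls was not tested.

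**Figure D5:**
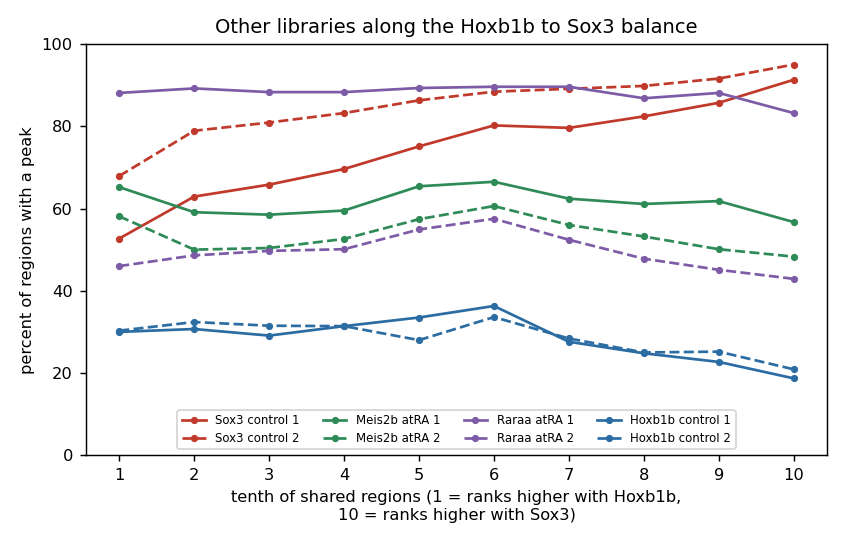
Percent of shared regions with a peak in the Sox3 control, Meis2b atRA, Raraa atRA and Hoxb1b control libraries (replicate 1 solid, replicate 2 dashed), by class of the balance (10 equal classes) between the factors. Sox3 controls climb from 52.7% and 67.9% to 91.3% and 95.0%, and Hoxb1b controls go from 30.0% and 30.3% to 18.7% and 20.9%.

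Extreme imbalance was scarce. In 10 shared regions both Hoxb1b libraries ranked in the strongest 5% and both Sox3 libraries in the weaker 50%, and in 8 regions it was the reverse, while 439 were in the strongest 5% in all 4 libraries. These ranks were taken among the shared regions, not in the whole peak lists. Among all shared regions, Meis2b atRA replicates 1 and 2 held a peak in 61.6% and 53.7%, Hoxb1b controls in 28.5% and 28.7%, and Sox3 controls in 74.5% and 85.1%. Among the 439, these were 437 and 438 regions for Meis2b, 292 and 243 for Hoxb1b controls and 431 and 438 for Sox3 controls. Of the 10, 8 held a peak in each Meis2b atRA library, 9 and 5 in Hoxb1b control replicates 1 and 2, and 1 and 3 in Sox3 control replicates 1 and 2. Of all shared sites in the strongest 20% with Hoxb1b, 89.1% and 84.6% held a peak in Meis2b atRA replicates 1 and 2. For Hoxb1b controls these shares were 43.3% and 38.9%, and for Sox3 controls 85.0% and 90.2%. One of the 10, on chromosome 14 from 32647294 to 32648281, had 67 and 44 fragments with Hoxb1b and 24 and 29 with Sox3. Another, on chromosome 15 from 23945976 to 23946669, had 44 and 33 against 11 and 9. Of the 8 regions that leaned to Sox3, all held a peak in both Sox3 controls, 6 and 4 in Meis2b atRA replicates 1 and 2, and 2 in each Hoxb1b control. The Sox3 control count is near the 90.9% and 95.1% of all shared sites in the strongest 20% with Sox3. The region on chromosome 16 from 23765273 to 23766010 had 11 and 11 fragments with Hoxb1b and 82 and 89 with Sox3, yet its summits lay 1 to 43 bp apart across the factors. These examples were chosen after their values had been seen.

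The shares varied little between chromosomes, while shared regions were crowded in some windows. By chromosome, the share of Hoxb1b sites at Sox3 sites ranged from 73.8% on chromosome 22 to 78.7% on chromosome 13. The share of Sox3 sites at Hoxb1b sites ranged from 35.9% on chromosome 9 to 41% on chromosome 2, and there were 1.90 to 2.12 Sox3 sites per Hoxb1b site. Hoxb1b sites without Sox3 lay a median of 6153 bp from the nearest Sox3 site, with quartiles of 2397 and 14200 bp. Sox3 sites without Hoxb1b lay a median of 12983 bp from the nearest Hoxb1b site. In windows of 100 kb, a window with any shared region held a median of 2. The fullest held 23, on chromosome 10 from 16800001 to 16900000, along with 1 Hoxb1b site without Sox3 and 4 Sox3 sites without Hoxb1b. The next held 18, on chromosome 16 from 26000001 to 26100000.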

How the data were processed

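The authors deposited 1 peak list per library, and each list has its own peak names, as calling per library gives. Bowtie, SAMtools and MACS2 and the build GRCz10 (danRer10) are named in the submitters' processing notes, without versions; input controls and duplicate handling are not given in the sources used here. Chromatin was sonicated to about 300 bp and tagged with Tn5 on beads, per the labels' protocols. Per the deposited columns, each peak has a fold enrichment (a ratio to local background) and a −log10 p and −log10 q at its summit. The q-values of the authors reach up to 0.05.

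Peaks on 25 chromosomes were used; 1.73% to 2.56% lay elsewhere in the 16 gastrula libraries. Lists at later stages were not used. Summit fragments k and background b were solved from fold enrichment, taken as (k+1)/(b+1), and the Poisson p, for 100% of peaks in the 4 main lists within 0.002 in −log10 p. The background is the 0.001 quantile of b. It also depends on fragment length. Ties at a last rank were drawn at random with a seed. The 4 regions with the best mean rank by p in each class were named by rule; others are marked in the text. The members, rules and lists were chosen with earlier results of these data known. Replicates are separate libraries; no label ties them to separate clutches, so p-values measure the spread between libraries. The interval functions and the recovery were tested on simulated data. Python 3.11.15, numpy 2.4.6 and scipy 1.17.1 were used. No genome of this build was used here, so the planned search for motifs and for sites near listed genes was not run.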

Additional observations from a re-analysis of the deposited data

How the results depend on the processing

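Alternatives marked as added were picked once the data were known. The Hoxb1b and Sox3 shares, with no test, moved by more than 0.494 and 0.586 points in most settings. Those values are SDs between libraries of a different share, that of a single library's peaks in sites of the other factor. It was 43.9% and 44.6% with Hoxb1b, and 20.7% and 21.6% with Sox3. Shares of sites merged over both libraries have no such spread. The shares of sites were 84.3% and 36.8% with a −log10 q of at least 5, 61.8% and 28.9% with a reciprocal overlap of 50%, and 68.7% and 51.1% with the 20000 strongest peaks. With 1 library left out they ranged from 43.9% to 83.3% and from 20.7% to 57.1%, since any peak of a lone library then counts as a site. The summit difference was 6.25 to 7.50 bp in all settings with 4 libraries and -1.50 to 17.5 bp with 1 left out. It was -1.50 bp, the opposite sign, without either Sox3 replicate, when the Hoxb1b pair alone gave the distance within a factor. The overlap difference ranged from 9.31 to 21.9 points with 4 libraries and from 10.6 to 27.8 with 1 left out. The log2 ratio of peak number ranged from 0.62 to 0.90. Leaving out chromosome 4 changed no call. The added gap in Meis2b peaks between shared regions and Sox3-free Hoxb1b sites was 40.7 points. It was 33.9 when the mean summit had to lie in a peak and 39.0 to 42.3 with 1 Meis2b library. Between shared and Sox3-free Hoxb1b sites it was 19.2 in the strongest 20% and 18.4 in the weakest. The added gap in Sox3 controls between the ends of the balance, 32.9 points, was 40.7 by mean summit, 29.2 by fold enrichment, and 27.1 to 38.7 with 1 control library. Blocking on replicate number, the log2 ratio was 0.76 (p = 0.5, exact sign flips, the smallest p that 2 pairs allow), the summit difference 7.50 bp and the overlap difference 18.1 points. Deviations of same-numbered libraries correlated at r = 0.0130 across shared regions, so the numbers were not taken to pair libraries. No test here could pass 0.05.
Leaving out sites with a peak in all 12 other libraries was also added. The planned motif windows were not run, as no genome of this build was used here. The mean-summit count of libraries, 9 against 10 of 12, was added too.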
